A study of Danio rerio with 18 samples.

Results

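Heat shock protein and chaperone genes were followed in whole zebrafish embryos from early cleavage to 24 h post fertilization (hpf), with and without injection of an RNA-targeting CRISPR complex. A gene was taken as a member when its symbol began with HSP, DNAJ or CCT and a digit, case ignored, and HSPG2, a matrix proteoglycan, was left out. This rule gave 97 of the 32521 identifiers counted (29201 had a symbol). The members were 4 HSP90 genes, 19 HSP70 and HSP110 genes, 2 genes of the HSP60 and HSP10 pair, 10 small heat shock protein genes, 8 CCT genes, 6 DNAJA, 14 DNAJB and 32 DNAJC genes, and 2 others (HSPBP1 and HSPBAP1). The symbols are those paired with Ensembl identifiers, mostly in capitals, and 9 symbols were borne by 18 members, which are told apart here by their identifiers.

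Embryos came from Tg(ddx4:ddx4-EGFP) females of the ABTL strain crossed with casper males, so that all libraries, mock ones included, carry the maternal transgene, whose ddx4 promoter is active in the germ line. At the 1-cell stage, 1 nL was injected into the yolk, with 0.7 ng of D16A-StCsm(EGFP), the Csm complex of Streptococcus thermophilus with a DNase-deficient Cas10 and a guide against EGFP, or with diluted Tris storage buffer (mock). The mock control holds no complex, so an effect of the guide and an effect of injecting protein cannot be told apart. In each of 3 independent injection experiments, pools of 25 embryos were frozen when they had 128 cells, then at 5 and 24 hpf, which gave 6 groups of 3 libraries and 18 libraries in all. A p-value here therefore sets the change within experiments against how far that change varied between the 3 injection experiments, which were fitted as a block.

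Chaperones bind unfolded or partly folded proteins and help them to reach or keep their native form. HSP70 proteins work in cycles with J-domain partners of the DNAJ families, HSP90 acts late in the folding of signalling proteins, and the CCT ring folds actin and tubulin. Small heat shock proteins hold unfolding proteins without using ATP, and several of them are best known in muscle. Some chaperone genes are induced by heat and other proteotoxic stress through the transcription factor Hsf1, whereas others are expressed at all times. A cleavage-stage zebrafish embryo lives on maternal RNA, and its own genome becomes active before 5 hpf.

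Assigned reads ranged from 11763787 to 21092691 per library. Marker genes followed the labelled stages, with the summed level of 8 maternal-stage genes at 2476 to 3903 CPM (reads of a gene relative to all assigned reads, with TMM scaling over the 18 libraries) in 128-cell embryos, 387 to 969 at 5 hpf and 4.38 to 14.9 at 24 hpf. The targeted EGFP transcript was lower after StCsm(EGFP) injection in each of the 3 experiments at the 128-cell stage, with 95.8 to 238 CPM against 162 to 285 CPM in mock embryos. It was also lower in each experiment at 5 hpf, with 62.3 to 111 CPM against 110.2 to 145 CPM. Some libraries stood apart. The mock libraries of replicates 1 and 3 at the 128-cell stage held 64.0 and 46.1 CPM of 18 skeletal muscle genes, and the other 4 libraries of that stage held 14.7 to 25.8 CPM. At 5 hpf the maternal-stage genes were lowest in mock replicate 2 (399 CPM) and StCsm(EGFP) replicate 3 (387 CPM), against 638 to 969 CPM in the other 4. At 24 hpf StCsm(EGFP) replicate 2 was the highest of 6 libraries for 36 and the lowest for 20 of 85 members tested.

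Together the members took a share of the assigned reads that was steady, by its means, in mock embryos only. In mock embryos the share was 1.50% ± 0.048 (SD, n = 3) in 128-cell embryos, 1.49% ± 0.093 at 5 hpf and 1.55% ± 0.16 at 24 hpf. In StCsm(EGFP) embryos it was 1.42% ± 0.091, 1.60% ± 0.030 and 1.68% ± 0.20, and the 5 hpf libraries all lay above those of the 128-cell stage. HSPA8 was the member with the most counts, and without it the mock shares were 1.17%, 0.922% and 1.01%. Without HSPA8 all mock libraries at 5 hpf lay below those of the 128-cell stage. Within this sum the members changed places. Of the 97 members, 8 were tested in none of the 9 comparisons because of low counts, 69 were tested in all of them, and all 97 had at least 1 count in some library.

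**Figure D1:**
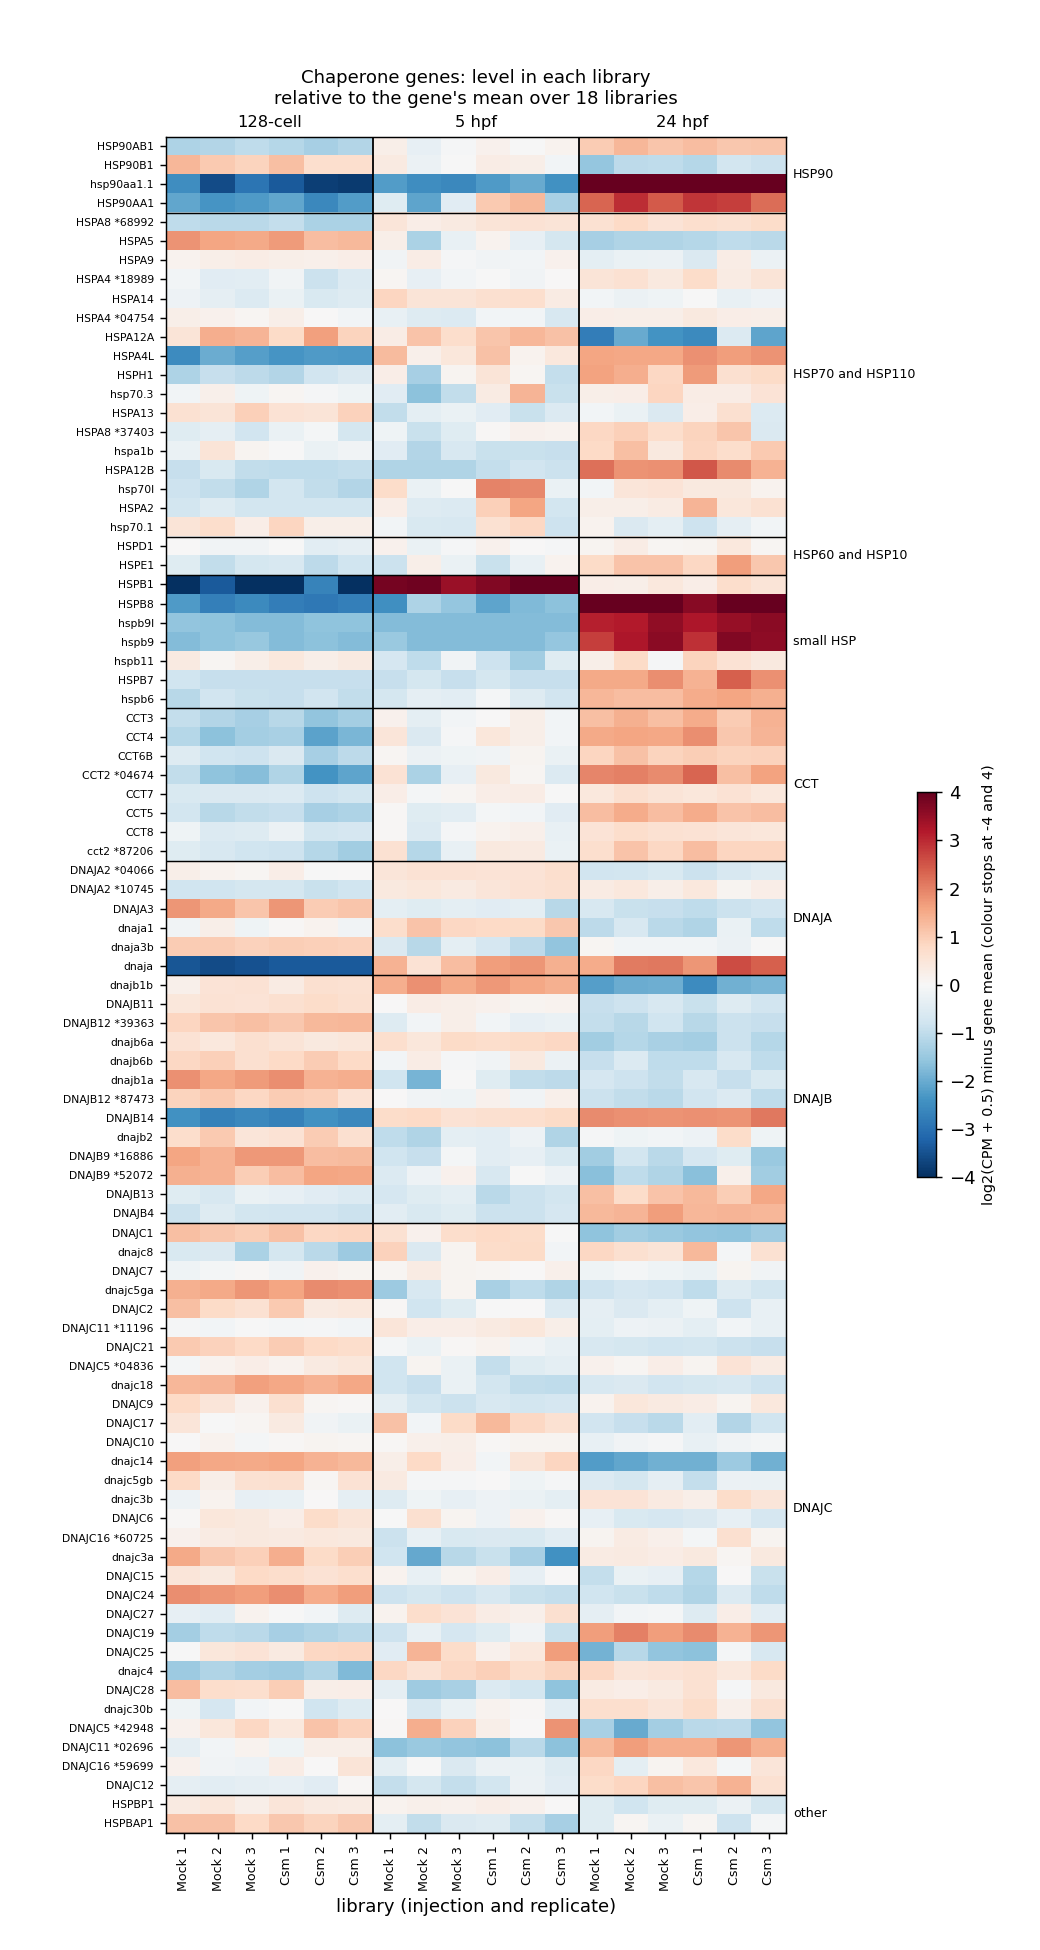
Level of the 89 members tested in at least 1 comparison, in each of the 18 libraries. Each row is a gene, grouped by family, each column a library, and the colour gives log2(CPM + 0.5) minus the mean of that gene over all libraries (red higher, blue lower, colour limited to -4 and 4); an asterisk gives the last digits of the identifier where a symbol is shared. HSPB1 is red at 5 hpf, hsp90aa1.1, HSPB8, hspb9 and hspb9l are red at 24 hpf, and HSPA5 and many of the DNAJB and DNAJC genes fade from red at the 128-cell stage.

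Mock embryos gave the developmental course of the genes. A gene was called between successive stages at an adjusted p under 0.1 (edgeR's quasi-likelihood test, Benjamini-Hochberg over all genes tested) and a change of at least 2-fold. From the 128-cell stage to 5 hpf, 19 of 88 members tested were higher and 28 lower, which is 21.6% and 31.8%, beside 27.8% higher and 25.4% lower among all 19100 genes tested. From 5 hpf to 24 hpf, 30 members were higher and 13 lower, or 34.1% and 14.8%, beside 33.3% and 29.5% of all genes. The share that was higher at the second step lay near the background, and the share that was lower lay below it, with a median change of 0.47 on the log2 scale over the 88 members and 0.04 over all genes. The successive steps share the 5 hpf libraries. Of the 88 members, 9 were higher at both steps, 3 were lower at both, 9 were lower and then higher, 2 were higher and then lower, and 21 were called at neither. These patterns were not counted over all genes, so whether the members differ from other genes in them cannot be told. The amount of RNA per embryo is not measured here, and the scale matters. Counts scaled by library totals in place of TMM moved the median change of all genes to -0.64 at the first step and -0.36 at the second, and the members then gave 7 higher and 37 lower, and 23 higher and 25 lower. Among all 19100 genes, 11407 were then called at the first step, 33.7% of them higher. At the second step 12489 were, 43.5% of them higher. No called member changed sign, and 35 of the 47 and 36 of the 43 remained called.

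**Figure D2:**
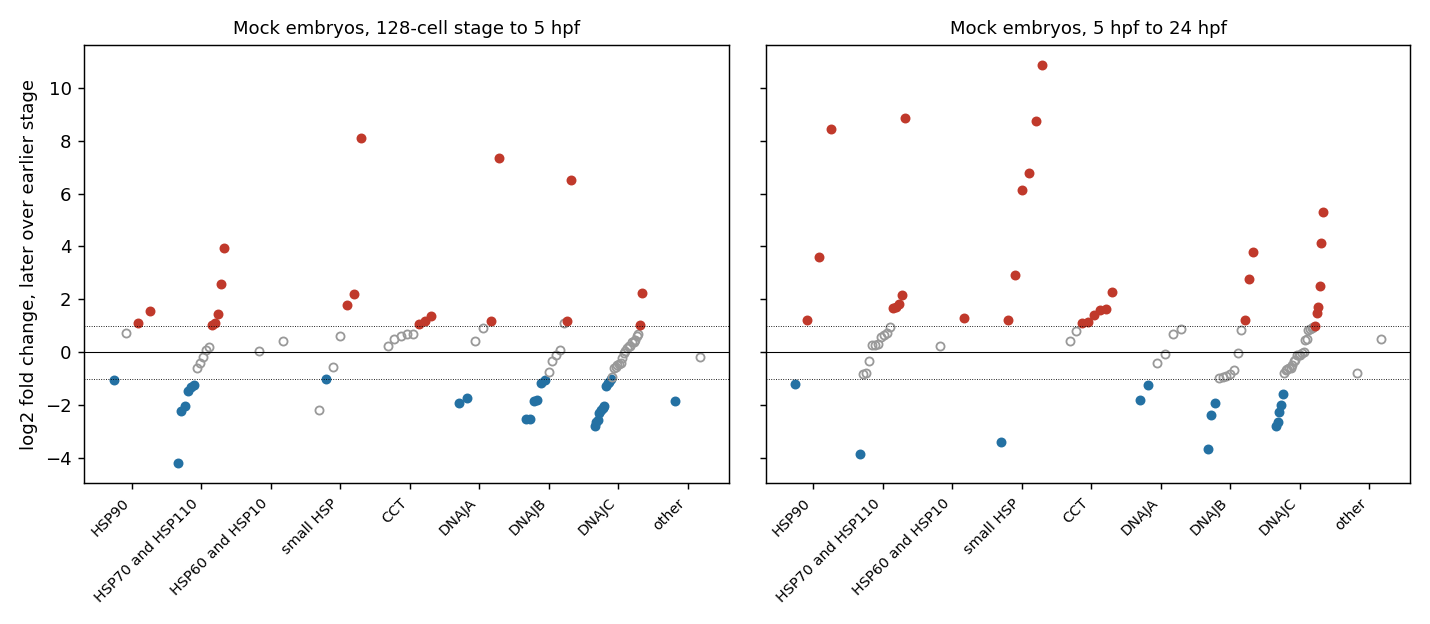
Change of each tested member in mock embryos between successive stages, as the fitted log2 fold change of the later over the earlier stage, by gene family. Filled red points were called higher and filled blue points lower, open points were not called, and dotted lines mark a 2-fold change; the fitted value of a gene with 3 counts or fewer in one stage depends on the prior count. All 8 CCT genes lie above 0 in both panels (5 of 8 in the first with library totals), and a small heat shock protein gene holds the highest point of each.

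The cytosolic HSP70 and HSP90 genes with the most counts rose from a large maternal pool. HSPA8 (ENSDARG00000068992), the constitutive cytosolic HSP70, had 2326, 2240.4 and 2224 CPM in mock replicates 1, 2 and 3 of 128-cell embryos, 6662, 5649 and 6101 at 5 hpf and 7302, 8225 and 6866 at 24 hpf. Further values are given in the same order. The 5 hpf libraries all lay above those of the 128-cell stage, and the 24 hpf libraries all lay above those of 5 hpf by less. The first step was called (log2 fold change 1.45 ± 0.21 (SE), edgeR adjusted p = 3.18e-05) and the second was not (log2 fold change 0.29 ± 0.20 (SE), edgeR adjusted p = 0.197). HSP90AB1 (ENSDARG00000029150), the constitutive cytosolic HSP90, had 1297, 1345 and 1503 CPM, then 3531, 2412 and 2914, then 6174, 7592 and 6543. Its libraries rose at each step without overlap, and both steps were called (2.14-fold and 2.32-fold, SE 0.22 and 0.22 on the log2 scale, edgeR adjusted p = 0.00049 and 0.000179). With library totals the first step fell under 2-fold for both, at 0.80 for HSPA8 and 0.45 for HSP90AB1 on the log2 scale, and so did the second step of HSP90AB1, at 0.83. Reads with several alignments were set aside by the authors, so a gene with a near-identical copy may be undercounted.

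Other HSP70 genes took other courses. HSPA14, a ribosome-associated HSP70 in yeast and mammals, peaked at 5 hpf with 204, 161 and 162 CPM, against 96.5, 88 and 75.9 before and 104, 96.4 and 99 after. With library totals its first step went from 1.02 to 0.38 on the log2 scale and was no longer called. HSPA4L, an HSP110-type exchange factor, rose from 0.202, 0.512 and 0.372 CPM to 9.05, 4.06 and 5.02 and then had 11.4, 11.1 and 11.3 (first step log2 fold change 3.96 ± 0.40 (SE), edgeR adjusted p = 1.43e-06). The related HSPA4 genes stayed within 2-fold, with 148, 115 and 118 CPM at the 128-cell stage and 226, 242 and 207 at 24 hpf for ENSDARG00000018989, and 113, 107 and 100.3 and 114, 112 and 113 for ENSDARG00000004754. HSPA12A, a distant member of the HSP70 family, went the other way. It had 7.94, 15.9 and 14.8 CPM, then 6.73, 12.5 and 9.14, then 0.364, 0.966 and 0.641, and fell at the second step (log2 fold change -3.83 ± 0.30 (SE), edgeR adjusted p = 9.3e-08). HSPA12B, known from endothelium, had 0.101, 0.256 and 0.0827 CPM at the 128-cell stage, no count in any mock library at 5 hpf, and 4.74, 3.48 and 3.57 CPM at 24 hpf, at least 47.6-fold higher than at 5 hpf, which was set at 3 counts over the group.

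**Figure D3:**
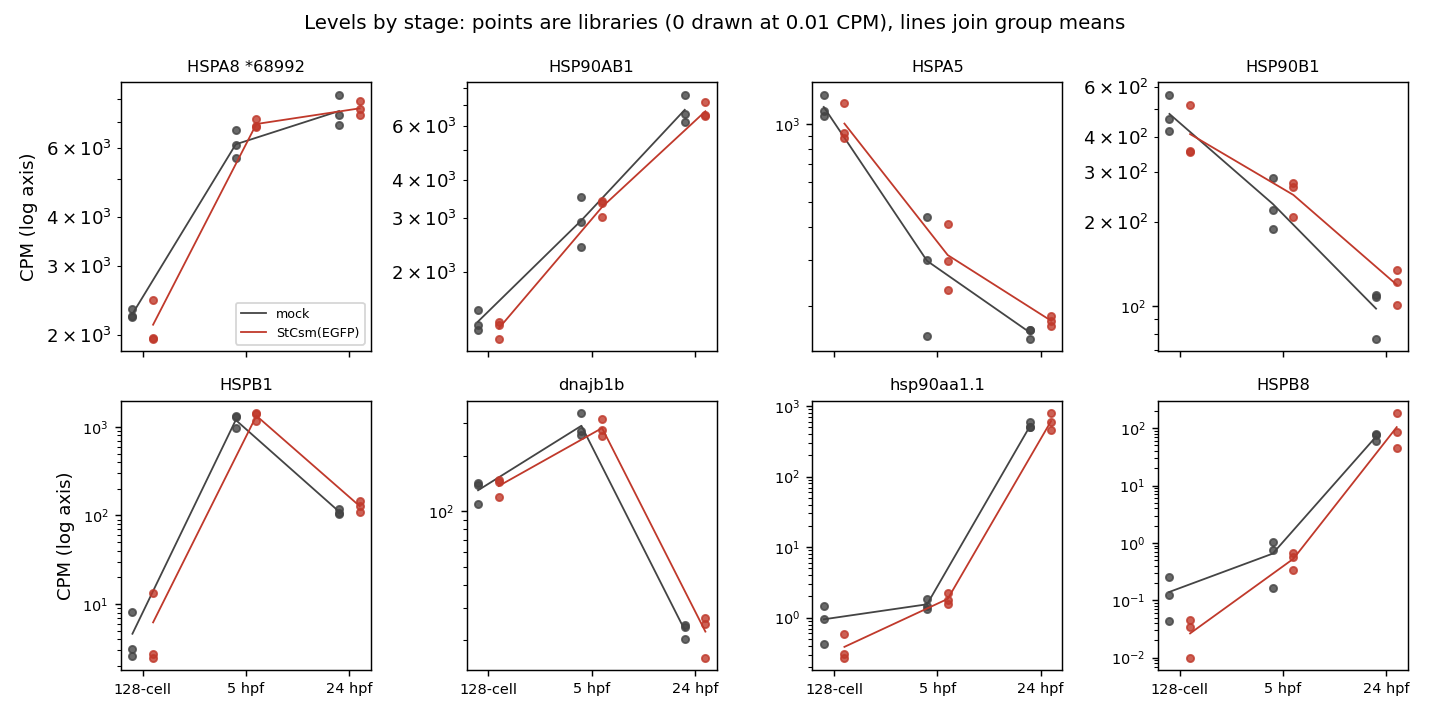
Levels of 8 members by stage, in CPM on a log axis. Points are the 3 libraries of each group (a library with no count is drawn at 0.01 CPM), lines join the group means, grey is mock and red is StCsm(EGFP). HSPA8 and HSP90AB1 rise, HSPA5 and HSP90B1 fall, HSPB1 and dnajb1b peak at 5 hpf, and hsp90aa1.1 and HSPB8 appear at 24 hpf, in both injection groups.

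Chaperones of the endoplasmic reticulum, which fold secreted and membrane proteins, included the genes HSPA5 and HSP90B1, whose levels fell. Of 10 listed members, 5 were lower and none higher from the 128-cell stage to 5 hpf (beside 25.4% lower and 27.8% higher of all genes), and 4 were lower and 1 higher from 5 hpf to 24 hpf (beside 29.5% and 33.3%). Members of this compartment outside the list include DNAJB14, called higher at both steps, and the DNAJB12 genes, called lower at the first. HSPA5 (BiP), the HSP70 of the endoplasmic reticulum, fell from 1295, 1117 and 1069 CPM to 438, 153 and 301 and then had 149, 162 and 162. The first step was called (log2 fold change -2.03 ± 0.25 (SE), edgeR adjusted p = 1.11e-05), and at 5 hpf the lowest library, replicate 2, was also the one with the lowest maternal-stage markers. HSP90B1, the HSP90 of that compartment, had 564, 463 and 417 CPM, then 285, 189 and 219.8, then 76.6, 108 and 110.1, and was lower at both steps (log2 fold change -1.20 ± 0.20 (SE), edgeR adjusted p = 8.61e-05 for the second). DNAJC1, a membrane-bound J-domain partner of BiP, had 627, 573 and 539 CPM, then 412, 309 and 444, then 88.5, 104 and 96.8. Its libraries do not overlap at any step, with the larger change at the second (log2 fold change -1.99 ± 0.17 (SE), edgeR adjusted p = 1.88e-07). DNAJB11 fell less, from 136, 149 and 147 to 52.1, 55.6 and 63.5 CPM over the whole course, and neither step reached 2-fold. The DNAJB9 genes (ERdj4 in mammals), targets of the unfolded protein response, were low and fell at the first step, ENSDARG00000016886 from 7.28, 6.27 and 8.23 to 0.997, 0.864 and 1.95 CPM and ENSDARG00000052072 from 3.74, 3.63 and 2.65 to 0.582, 0.864 and 1.27. The single listed member called higher was dnajc3a (P58IPK), which limits the kinase PERK in mammals. It went from 6.81, 2.59 and 5.47 CPM at 5 hpf to 15.7, 16 and 15.4 at 24 hpf, after a fall from 36.5, 26.5 and 24.4. The listed dnajc3b also rose at the second step, by less than 2-fold (log2 fold change 0.87 ± 0.18 (SE), edgeR adjusted p = 0.000674). The partner genes of this compartment outside the symbol rule went both ways at the first step. HYOU1, an exchange factor of BiP, and PDIA4, a disulfide isomerase, were called lower (log2 fold changes -1.86 and -3.63). SIL1, also an exchange factor of BiP, was called higher, from 6.57, 6.61 and 5.92 to 17.7, 13 and 13.3 CPM, and so were both genes with the symbol SERPINH1, the collagen chaperone (log2 fold changes 6.17 and 3.96). CANX, P4HB, PDIA3, PDIA6 and CALR were not called (log2 fold changes -0.29 to 0.66).

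Mitochondrial chaperones differed from one another in their course. Of 11 listed members, 4 were lower and none higher at the first step (beside 25.4% lower and 27.8% higher of all genes), and 4 were higher and none lower at the second (beside 33.3% and 29.5%). The 4 higher calls of 11 at the second step lay near the share of all genes. HSPD1 (HSP60), the mitochondrial folding chamber, was steady, with 221, 198 and 199 CPM, then 249, 182 and 211, then 239, 268 and 231. Its cofactor HSPE1 (HSP10), whose gene lies next to hspd1 in the RefSeq annotation of zebrafish (GRCz12tu), was not steady. HSPE1 had 32.1, 22.6 and 27.3 CPM, then 24.4, 52.5 and 37.5, then 76, 99.4 and 99.8, and was higher at the second step (2.46-fold, edgeR adjusted p = 0.000191), though not past 2-fold with library totals (0.90 on the log2 scale). DNAJC19, a J-domain protein of the inner membrane, rose from 4.4, 6.48 and 4.87 to 27, 34.2 and 26.8 CPM (log2 fold change 2.50 ± 0.20 (SE), edgeR adjusted p = 1.27e-07). DNAJA3, the mitochondrial J-domain partner of HSPA9, fell from 215, 181 and 136 to 47.4, 44.3 and 47.3 CPM at the first step (log2 fold change -1.90 ± 0.15 (SE), edgeR adjusted p = 1.68e-07). HSPA9 itself, the mitochondrial HSP70, stayed between 179.8 and 295 CPM in all 9 mock libraries. The identifiers that share the symbol DNAJC11, a mitochondrial J-domain protein, ran opposite courses. One (ENSDARG00000011196) had 86, 82.2 and 87.7 CPM, then 123, 108 and 106, then 67.6, 76.5 and 74.5, and the other (ENSDARG00000102696) had 1.52, 1.92 and 2.36 CPM, then 0.332, 0.432 and 0.374, then 5.83, 7.82 and 6.69. The second was called lower and then higher, and the first was called at neither step.

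The CCT genes, subunits of the cytosolic ring that folds actin and tubulin, had higher values at each step after TMM scaling. All 8 had a change above 0 at both steps (with library totals 5 of 8 at the first and 8 of 8 at the second), with 3 of 8 called higher at the first and 6 of 8 at the second (beside 27.8% and 33.3% of all genes), and none was called lower. With library totals none was called at the first step and 4 were called at the second, beside 11407 and 12489 of all 19100 genes. CCT3 had 159, 137 and 122 CPM, then 346, 238 and 286, then 719.9, 832 and 720.0, without overlap between stages. CCT4 had 94.9, 67.1 and 80.9 CPM, then 291, 139 and 202, then 603, 627 and 616 (log2 fold changes 1.35 ± 0.18 and 1.62 ± 0.19, edgeR adjusted p = 2.13e-05 and 3.23e-06). CCT2 (ENSDARG00000104674) had 75.5, 48.7 and 45.8 CPM, then 223, 61.2 and 119, then 579, 609 and 554. At 5 hpf its libraries spread widely, with replicate 2, the library low in maternal-stage markers, at 61.2 CPM, close to the 128-cell stage. CCT7 and CCT8 were called at neither step, with 152, 157 and 155 and 169.6, 133 and 133 CPM at the 128-cell stage and 314, 361 and 335 and 283, 316 and 294 at 24 hpf. A further identifier with the symbol cct2 (ENSDARG00000087206) stayed at 18.9 CPM or less in mock libraries, and whether reads of the CCT2 genes were split between them cannot be told from these counts. TCP1, the remaining subunit named outside the symbol rule, had 177, 154 and 162 CPM, then 294, 161 and 225, then 205, 239 and 230.2, and was called at neither step. Of the 6 listed genes of prefoldin, which hands actin and tubulin to the ring, PFDN2, PFDN4 and PFDN6 were called higher at the first step (log2 fold changes 1.01, 1.52 and 1.53). PFDN2 had 28, 40.4 and 46 CPM, then 47.8, 120 and 69.6, with replicate 2 far above the others at 5 hpf. PFDN1, PFDN5 and VBP1 were not (0.98, 0.84 and -0.13).

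J-domain genes made up the largest group. At the first step 2 of 6 DNAJA genes tested were higher and 2 lower, 2 of 13 DNAJB genes were higher and 6 lower, and 2 of 30 DNAJC genes were higher and 11 lower, beside 27.8% higher and 25.4% lower of all genes. The DNAJA counts lay near those shares. dnajb1b, a cytosolic partner of HSP70, peaked at 5 hpf with 258, 339 and 273 CPM, against 110.1, 138 and 141 at the 128-cell stage and 20.4, 23.8 and 24.1 at 24 hpf. With library totals its first step was no longer called (0.52 on the log2 scale). The fall at the second step was the steepest among the J-domain genes called lower (log2 fold change -3.66 ± 0.15 (SE), edgeR adjusted p = 2.3e-10). Its paralog dnajb1a went down from the start, from 64.9, 54.1 and 60.3 to 10.3, 4.67 and 17.7 CPM (log2 fold change -2.53 ± 0.30 (SE), edgeR adjusted p = 7.28e-06). Of the DNAJA2 genes, also cytosolic partners of HSP70, ENSDARG00000104066 had 433, 404 and 394 CPM, then 523, 558 and 559, then 218, 222 and 241, and ENSDARG00000010745 had 82.5, 81.8 and 87.9, then 187, 197 and 185, then 182, 194 and 168. The former was lower at the second step and the latter higher at the first, though with library totals the rise of the latter fell under 2-fold (0.54 on the log2 scale).

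Some J-domain genes were nearly absent from the cleavage embryo. The gene with the symbol dnaja (ENSDARG00000051762) had 0.101, 0.0427 and 0.0827 CPM, then 16.3, 9.16 and 14.8, then 17.6, 26.8 and 27.3, and the first step was log2 fold change 7.34 ± 0.43 (SE), edgeR adjusted p = 7.41e-09. DNAJB14, a J-domain protein of the endoplasmic reticulum membrane, had 3 counts over the mock libraries of the 128-cell stage and 4.9, 5.19 and 4.34 CPM at 5 hpf. The ratio was 108 (exact 95% binomial interval 36.2 to 527, counting error only). DNAJC12, a partner of aromatic amino acid hydroxylases in mammals, was lowest at 5 hpf instead. It had 16 counts over the mock libraries of the 128-cell stage and 1 at 5 hpf, a ratio of 8.78 (interval 1.36 to 368), and was called lower. At 24 hpf it had 1.09, 1.26 and 1.74 CPM, a ratio of 51.3 over 5 hpf (interval 8.71 to 2077). Maternal J-domain transcripts that fell included dnajc5ga, a cysteine string protein type, from 207, 223 and 265 to 27.7, 49.1 and 83.6 CPM at the first step. The gene dnajc14 fell at both steps, with 51.8, 48 and 47.1 CPM, then 19.3, 28.6 and 19.6, then 3.04, 3.48 and 3.94. The DNAJB12 genes, which encode membrane J-domain proteins of the endoplasmic reticulum, both fell at the first step, ENSDARG00000039363 from 111, 133 and 141 to 42.7, 56.4 and 72.3 CPM and ENSDARG00000087473 from 18.8, 20.7 and 17.9 to 9.97, 8.82 and 8.76. DNAJC7, a partner of both HSP70 and HSP90, held between 122 and 175 CPM in all 9 mock libraries. Of 5 tested genes on the list for synapse and neuron, 2 were lower at the first step and 1 at the second (beside 25.4% and 29.5% of all genes), and none was called higher, while neuron markers summed to 194 to 217 CPM at the 128-cell stage and 1435 to 1621 CPM at 24 hpf in mock embryos. Under 2-fold at the second step, dnajb2 rose and dnajc5gb and DNAJC6 fell (0.85, -0.63 and -0.79). The DNAJC5 genes, not on the list, went both ways there (0.48 for ENSDARG00000004836, -2.80 for ENSDARG00000042948).

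Several small heat shock protein genes had wide ranges. HSPB1 (HSP27) had 3.08, 8.24 and 2.56 CPM in mock embryos, then 1281, 1331 and 973, then 108, 105 and 119. The first step was a 273-fold rise (log2 fold change 8.09 ± 0.37 (SE), edgeR adjusted p = 1.72e-09) and the second a 10.5-fold fall (log2 fold change -3.39 ± 0.29 (SE), edgeR adjusted p = 3.87e-07). At the 128-cell stage replicate 2 was the highest library in both groups, with 13.4 CPM after StCsm(EGFP) injection. HSPB8, a chaperone of muscle and heart that works with BAG3, had 0.253, 0.0427 and 0.124 CPM, then 0.166, 1.04 and 0.749, then 58.6, 77.8 and 77.2 (second step log2 fold change 6.79 ± 0.36 (SE), edgeR adjusted p = 2.23e-09). At 24 hpf other small heat shock genes appeared. hspb9l had no count in the mock libraries at 5 hpf and 13.8, 14.3 and 18.8 CPM at 24 hpf, at least 195-fold higher than at 5 hpf, which was set at 3 counts over the group. hspb9 had 1 count over the 5 hpf group and 10.8, 15 and 19.5 CPM at 24 hpf, a ratio of 572 (exact 95% binomial interval 102 to 22655). HSPB7, a cardiac small heat shock protein, had 1 count at 5 hpf and 2.19, 2.22 and 2.93 CPM at 24 hpf, a ratio of 91.4 (15.9 to 3660). hspb6, known from smooth and cardiac muscle, rose from 0.166, 0.346 and 0.3 to 2.19, 2.03 and 2.01 CPM at the second step. hspb11 stayed low throughout, with 2.53, 2.01 and 2.32 CPM, then 0.997, 0.691 and 1.65, then 2.31, 3.57 and 1.83. HSPB2, HSPB3 and hspb15 had at most 0.822 CPM in any library and were not tested between the stages.

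Chaperones of muscle included the member of the HSP90 family with the widest range. hsp90aa1.1 (ENSDARG00000010478), which zebrafish skeletal muscle needs to fold myosin, had 1.47, 0.427 and 0.951 CPM, then 1.83, 1.47 and 1.35, then 499.5, 510.2 and 586. The second step was log2 fold change 8.45 ± 0.28 (SE), edgeR adjusted p = 6.17e-11, a 349-fold change. Its partners in myosin folding moved at the same step, with UNC45B at 2.71 and the SMYD1 genes at 8.66 (ENSDARG00000009280) and 9.04 (ENSDARG00000091253) on the log2 scale. The summed level of 18 skeletal muscle genes was 40.2 to 52.7 CPM in mock embryos at 5 hpf and 23233 to 24991 CPM at 24 hpf, and all 18 were higher at this step. In whole embryos, more cells of a type and more RNA per cell cannot be told apart. The stress-inducible cytosolic HSP90 gene HSP90AA1 (ENSDARG00000024746) rose over the same period, from 2.78, 2.18 and 2.36 to 9.47, 2.68 and 9.59 to 69.1, 106 and 75.7 CPM, with replicate 2 low at 5 hpf (second step 12.1-fold, edgeR adjusted p = 3.58e-06).

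Members known to be inducible by heat had no common course. Of 14 listed, 5 were higher and 4 lower at the first step (beside 27.8% and 25.4% of all genes), and 6 higher and 2 lower at the second (beside 33.3% and 29.5%). The counts at the first step lay near the shares of all genes. hsp70.3 had 2.48, 3.16 and 2.36 CPM, then 1.83, 0.519 and 1.12, then 3.28, 3.38 and 5.31, and hsp70.1 had 0.758, 0.939 and 0.579, then 0.332, 0.0864 and 0.0749, then 0.486, 0.0966 and 0.183. These genes lie next to hsp70.2 in the RefSeq annotation, and such close copies may share reads. hsp70l had 0.253, 0.171 and 0.0827 CPM, then 1.74, 0.605 and 0.824, then 0.729, 1.35 and 1.47. All stayed at or under 5.31 CPM in mock embryos. HSPH1, the inducible HSP110, was called higher at both steps, with 1.06, 1.41 and 1.28 CPM, then 3.9, 0.951 and 3.44, then 10.7, 9.46 and 6.04, again with replicate 2 low at 5 hpf, below the 128-cell libraries. With library totals the first step of HSPH1, HSP90AA1 and dnajb1b was no longer called (0.45, 0.91 and 0.52 on the log2 scale). hsf1, which encodes the factor that activates these genes, was higher at the first step and lower at the second (log2 fold changes 1.11 and -2.42 with TMM scaling). It had 29.4, 32.7 and 38.7 CPM, then 49.4, 120 and 61.2, then 10.8, 17.3 and 13.2, with replicate 2 far above the others at 5 hpf. Over all 62 partner genes matched, 58 were tested, with 15 higher and 9 lower at the first step and 13 higher and 10 lower at the second, beside the same shares of all genes.

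Some members were low or hardly seen. Of those with a symbol shared with an abundant gene, the second HSPA8 (ENSDARG00000037403) had 0.961, 1.11 and 0.703 CPM, then 1.33, 0.605 and 0.974, then 3.16, 3.48 and 2.84, and the second DNAJC5 (ENSDARG00000042948) had 4.85, 6.02 and 7.9, then 4.4, 12.4 and 8.46, then 1.46, 0.676 and 1.37. At the second step this HSPA8 was called higher and this DNAJC5 lower (log2 fold changes 1.71 and -2.80). How reads of near-identical copies were shared out was not tested. The 9 members not tested between mock stages were DNAJB5, DNAJC5B, DNAJC22, HSPA2, hspa12a.1, hspa12a.2, HSPB2, HSPB3 and hspb15, and 7 members had at most 20 counts in every library. The 2 members outside the families were HSPBP1, an exchange factor of HSP70, with 19, 20.1 and 17.4 CPM, then 16, 16.9 and 16.4, then 10.2, 8.11 and 10.3, and HSPBAP1, named for its binding to HSPB1, which fell at the first step from 10.2, 10.3 and 7.82 to 3.16, 1.9 and 2.7 CPM.

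StCsm(EGFP) embryos, fitted alone, gave a similar number of calls. From the 128-cell stage to 5 hpf, 19 of 89 members tested were higher and 25 lower, beside 28.6% and 27.5% of 19300 genes. From 5 hpf to 24 hpf, 29 were higher and 13 lower, beside 33.3% and 28.1% of all genes. Of the 19 members called higher at the first step in each group, 16 were shared, and 21 lower calls were shared by the 28 in mock and the 25 in StCsm(EGFP) embryos. At the second step 26 higher calls were shared by the 30 and the 29, and 12 lower calls by the 13 in each. Shared calls were not counted over all genes, so whether the members differ from other genes in them cannot be told. With library totals the StCsm(EGFP) embryos gave 13 higher and 35 lower at the first step and 21 higher and 17 lower at the second. Of the 19300 genes, 11918 were then called at the first step, 35.0% of them higher, and 12119 at the second, 48.2% of them higher. With DESeq2's size factors, which moved the median of all genes to 0.11 at the first step, the members gave 23 higher and 19 lower there. Of all genes 10757 were called there, 54.9% of them higher.

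The injection was compared at each stage, with the experiment as a block and the same threshold on the adjusted p. At the 128-cell stage 10 of 75 members tested were lower after StCsm(EGFP) injection and 2 were higher. That is 13.3% and 2.67%, beside 2.79% lower and 2.26% higher among all 15498 genes tested. The changes were small. The median change of the 75 members was -0.08 on the log2 scale (all genes -0.00067), and 25 of 75 were above 0 (49.9% of all genes). In 27 of the 75, or 36%, the level was lower in all 3 experiments, beside 18.2% of all genes, and in 14, or 18.7%, it was higher in all 3, beside 19.8% of all genes. Of the 12 calls, 2 held at an adjusted p under 0.05, and none was made without the block, when all 18 libraries were fitted together, or when replicate 2 was left out. Over all genes the last settings gave 0, 6 and 102 calls. The count of all genes under 0.05 is not given here, so the 2 cannot be set against a background. Without replicate 1 there were 2 member calls (234 over all genes), and without replicate 3 there were 8 (875 over all genes).

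The CCT genes made up 5 of the 10 lower calls, and all 8 were below 0 under each of the scalings tried (4 called with DESeq2's size factors and 5 with library totals). CCT4 had 94.9, 67.1 and 80.9 CPM in mock replicates 1, 2 and 3 and 84.4, 46.9 and 58.9 CPM in StCsm(EGFP) replicates 1, 2 and 3 (log2 fold change -0.38 ± 0.07 (SE), edgeR adjusted p = 0.0216). CCT2 (ENSDARG00000104674) had 75.5, 48.7 and 45.8 CPM against 64.9, 28.2 and 33.9 CPM (log2 fold change -0.48 ± 0.10 (SE), edgeR adjusted p = 0.0313). Both stayed called without replicate 1 (edgeR adjusted p = 0.0568 for each) and without replicate 3 (0.0205 and 0.00442), and neither without replicate 2. For both genes each StCsm(EGFP) library was below the mock library of its experiment, while the groups overlapped, with experiment 1 high in both. CCT5 had 102, 77.8 and 85.9 against 88.2, 66.8 and 71.5 CPM (log2 fold change -0.24 ± 0.06 (SE), edgeR adjusted p = 0.075). CCT6B and the second cct2 gene were also called (-0.28 and -0.53), and CCT3, CCT7 and CCT8 were not (-0.20, -0.12 and -0.14). Over the 8 genes the median log2 ratio was -0.16 in experiment 1, -0.45 in experiment 2 and -0.24 in experiment 3, where the medians of all genes were 0.05, 0.02 and -0.06. TCP1, the subunit outside the symbol rule, was lower as well (log2 fold change -0.23 ± 0.06, edgeR adjusted p = 0.0758), and so was CDC37, a cochaperone of HSP90 for kinases (-0.35 ± 0.09, adjusted p = 0.0728). They were the only calls among the 53 partner genes tested, beside 2.79% lower and 2.26% higher of all genes, so this count lay near the background. The maternal-stage markers summed to 3903, 3011 and 3240 CPM in mock replicates 1, 2 and 3 and to 3792, 2476 and 2985 CPM in StCsm(EGFP) replicates 1, 2 and 3. In both groups, as for CCT4, replicate 1 was highest and replicate 2 lowest, and of the 8 markers 1 was called lower. Their part in the CCT result was not tested.

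**Figure D4:**
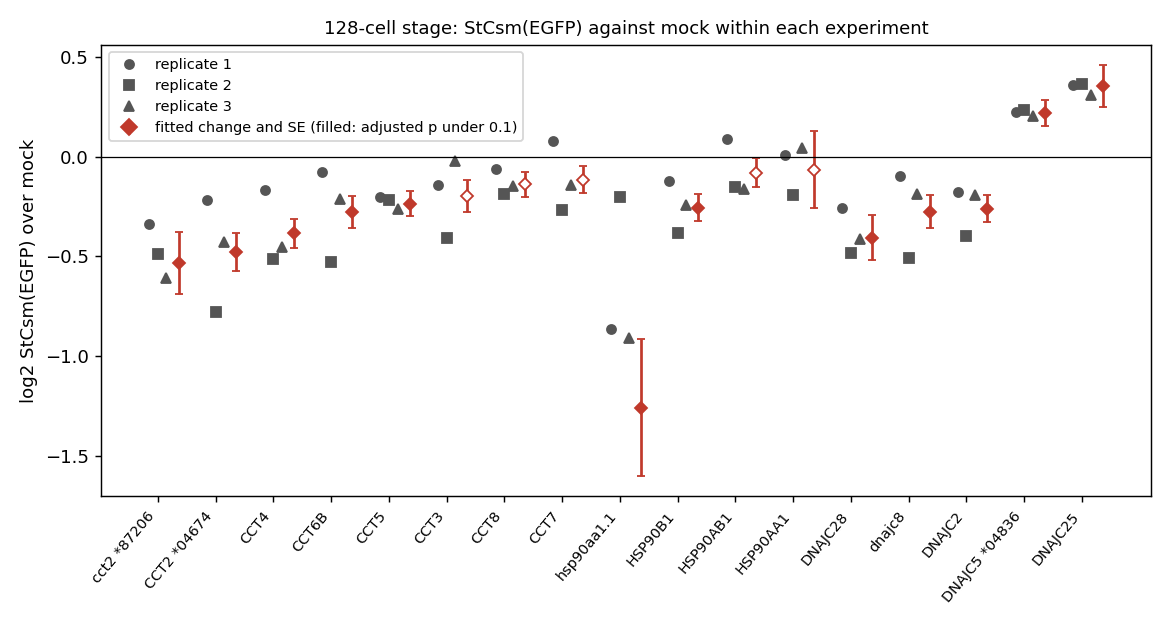
Members at the 128-cell stage: all 8 CCT and all 4 HSP90 genes, and the other members called. Grey symbols are log2 ratios of StCsm(EGFP) over mock within each of 3 experiments, from CPM with 0.5 added, and red diamonds are the fitted log2 fold changes with their standard errors (filled where adjusted p was under 0.1). The called CCT genes lie below 0 in all 3 experiments, DNAJC5 and DNAJC25 above 0, and most changes are under 0.5 in size; the pseudocount draws the grey symbols of hsp90aa1.1, which has few counts, toward 0.

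Both HSP90 calls were lower. HSP90B1 had 564, 463 and 417 CPM in mock and 518, 355 and 353 CPM in StCsm(EGFP) replicates (log2 fold change -0.26 ± 0.07 (SE), edgeR adjusted p = 0.0735). hsp90aa1.1 had the largest change of any call, with 1.47, 0.427 and 0.951 CPM in mock and 0.579, 0.306 and 0.271 CPM in StCsm(EGFP) embryos (log2 fold change -1.26 ± 0.34 (SE), edgeR adjusted p = 0.0772). It was lower in each experiment, and mock replicates 1 and 3 stood above the other 4 libraries. These are the same libraries in which muscle markers were high. Of 13 muscle markers tested 7 were called lower after StCsm(EGFP) injection, and of 3 epidermal markers tested all 3 were. The muscle myosin gene myhz1.1 was at 5.51, 0.427 and 3.81 CPM in mock and at 1.33, 0.17 and 0.271 CPM in StCsm(EGFP) replicates. Without any 1 of the replicates hsp90aa1.1 was no longer called, with log2 fold changes of -1.51 to -1.09. The part of these markers in its result was not tested. In replicate 2 the summed muscle markers were alike (17.6 CPM in mock, 17.5 CPM in StCsm(EGFP)), but the single markers were not. There myhz1.1, actc1b and ckmb were lower in the StCsm(EGFP) library, and both genes with the symbol TTN were higher. In the same replicate hsp90aa1.1 was at 0.427 CPM in mock and 0.306 CPM in StCsm(EGFP), from 10 and 9 counts. HSP90AB1 and HSP90AA1 were not called (-0.08 and -0.06).

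The other calls were J-domain genes. DNAJC2, a ribosome-associated J-domain protein, had 193, 139 and 126 CPM in mock and 170.3, 106 and 111 in StCsm(EGFP) embryos (log2 fold change -0.26 ± 0.07 (SE), edgeR adjusted p = 0.07), and each StCsm(EGFP) library was below its mock partner. dnajc8 and DNAJC28 were lower as well (-0.28 and -0.41), though dnajc8 was not called with DESeq2's size factors or with library totals. The members called higher were DNAJC5 (ENSDARG00000004836), a cysteine string protein of secretory vesicles, and DNAJC25, a membrane J-domain protein. DNAJC5 had 61.4, 71.3 and 77.5 CPM in mock and 71.9, 83.8 and 89.4 in StCsm(EGFP) replicates (log2 fold change 0.22 ± 0.06 (SE), edgeR adjusted p = 0.0968). DNAJC25 had 9.86, 13.8 and 14.7 against 12.8, 17.9 and 18.3 (log2 fold change 0.35 ± 0.11 (SE), edgeR adjusted p = 0.0982). Both were higher in each experiment, with ranges that overlapped between the groups, and with DESeq2's size factors neither was called. Among the 12 heat-inducible genes tested at this stage none was called, with a median change of -0.08.

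At 5 hpf no member of 75 tested was called, beside 0% of 15819 genes. The targeted EGFP transcript was among the genes tested and was not called either, though it was lower in each experiment. The lack of calls at this stage therefore does not show a lack of effect. At an unadjusted p under 0.05 there were 2 members, both higher, and 131 genes in all, and DESeq2's likelihood ratio test also called no member. The members behind that count, hsp70.3 and hsp70l, were high in particular libraries, as were some but not all other genes on the heat-inducible list. hsp70l had 1.74, 0.605 and 0.824 CPM in mock replicates 1, 2 and 3 and 4.75, 4.6 and 0.603 in StCsm(EGFP) replicates (1.41 ± 0.55, edgeR adjusted p = 1). hsp70.3 had 1.83, 0.519 and 1.12 against 3.48, 7.65 and 1.21 CPM (1.54 ± 0.62, edgeR adjusted p = 1). HSP90AA1 had 9.47, 2.68 and 9.59 against 27.9, 33.8 and 5.16 CPM (1.41 ± 0.70, edgeR adjusted p = 1). In all of them StCsm(EGFP) replicates 1 and 2 were the highest libraries of the stage and StCsm(EGFP) replicate 3 was within the mock range, or for hsp70l just under it. The same libraries were highest for hsp70.1, with 0.332, 0.0864 and 0.0749 against 0.849, 1.07 and 0 CPM. They were also highest for HSPA2, which is not on that list, with 0.498, 0.0864 and 0.0749 against 1.1, 1.97 and 0 CPM. Both genes were too low to be tested at this stage.

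**Figure D5:**
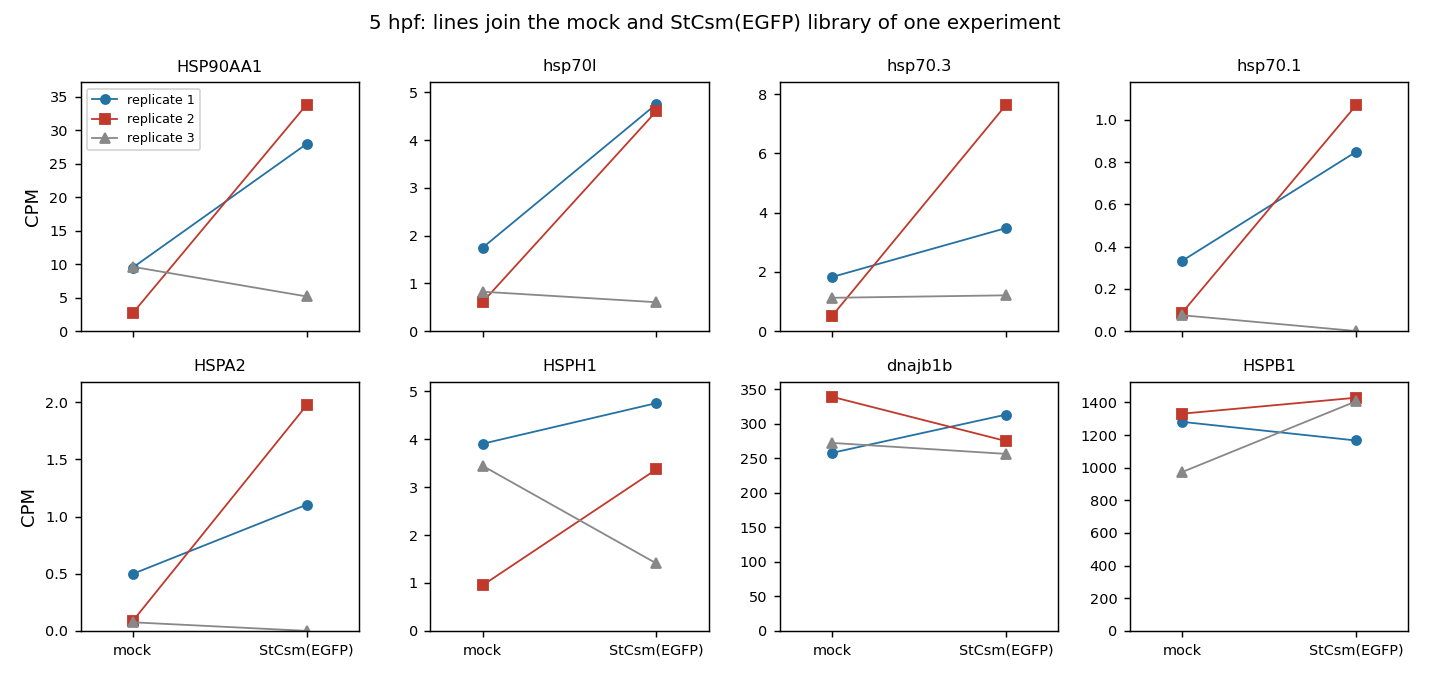
Heat-inducible members and HSPA2 at 5 hpf, in CPM from 0. Each line joins the mock and the StCsm(EGFP) library of 1 experiment. For HSP90AA1, hsp70l, hsp70.3, hsp70.1 and HSPA2 the lines of replicates 1 and 2 rise and that of replicate 3 is flat or falls, and HSPH1 has the same directions with overlapping groups, whereas dnajb1b and HSPB1 do not have this order.

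This pattern depended on which experiment was counted. Without replicate 3, HSP90AA1 was called at a 5.71-fold higher level (log2 fold change 2.51 ± 0.43, edgeR adjusted p = 0.077), and without a filter on low counts it was called with all 3 replicates (1.43 ± 0.32, adjusted p = 0.0541). Those fits called 7 and 6 genes in all. hsp70l without replicate 3 was at 2.06 ± 0.46 with an adjusted p of 0.195. StCsm(EGFP) replicate 3 was also the library with the fewest maternal-stage transcripts at 5 hpf (387 CPM), although mock replicate 2 was close to it (399 CPM) and had the lowest HSP90AA1 value. The part of these markers in the split was not tested. HSPH1 and dnajb1a, also on the heat-inducible list, likewise had values above mock in experiments 1 and 2 and below it in experiment 3, with HSPH1 at 3.9, 0.951 and 3.44 against 4.75, 3.37 and 1.41 CPM and dnajb1a at 10.3, 4.67 and 17.7 against 12.9, 8.96 and 8.51 CPM, and neither was called. Their groups overlapped, and mock libraries were among the highest. Some members not on the list had these directions too, so they were not particular to it. Among them were dnajb2 (log2 ratios 0.59, 1.01 and -0.82) and DNAJC1 (0.20, 0.57 and -0.72), while HSPA8 (ENSDARG00000068992) did not (0.04, 0.33 and 0.16). On the heat-inducible list, dnajb1b, HSPB1, hspb11, HSPE1 and HSPD1 did not have this order. Of the listed HSPA4 genes, ENSDARG00000004754 had it (0.20, 0.41 and -0.08) and ENSDARG00000018989 did not (-0.07, 0.18 and 0.12). The level of hspb11 was below mock in all 3 experiments, and that of HSPE1 was above mock only in experiment 3. dnajb1b had 258, 339 and 273 against 314, 275 and 257 CPM and HSPB1 1281, 1331 and 973 against 1167, 1429 and 1407 CPM, with overlapping groups. The CCT genes, lower at the preceding stage, were spread at 5 hpf, with CCT4 at 291, 139 and 202 CPM in mock and 283, 245 and 195 in StCsm(EGFP) embryos (0.24 ± 0.23). All 8 were above 0 in the fit (7 of 8 with library totals) and none was called, with a median log2 ratio of -0.14 in experiment 1, 0.68 in experiment 2 and -0.07 in experiment 3.

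At 24 hpf no member of 85 tested was called, beside 0% of 16986 genes. At an unadjusted p under 0.05 there were 3 members, all higher (DNAJC25, dnaja and HSP90B1), and 819 genes in all, and DESeq2's likelihood ratio test called none. DNAJC25 had 2.31, 4.34 and 3.02 CPM in mock and 2.81, 9.35 and 6.2 in StCsm(EGFP) replicates (0.88 ± 0.27, edgeR adjusted p = 0.977). It was higher in each experiment, and the ranges of the groups overlapped. HSP90B1, lower at the 128-cell stage, had 76.6, 108 and 110.1 against 102, 135 and 122 CPM (0.30 ± 0.13). In 12 of the 85 members, or 14.1%, the level was higher in all 3 experiments, beside 11.4% of all genes, and in 2, or 2.35%, it was lower in all 3, beside 12.7%. StCsm(EGFP) replicate 2 stood apart for several members. It had 182 CPM of HSPB8, where the other 5 libraries had 45.1 to 84.7, 793 CPM of hsp90aa1.1 against 451 to 593, and 3.53 CPM of HSPA12A against 0.364 to 0.966. Its muscle markers were the lowest of the 6 (20054 CPM against 23078 to 25704).

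Whether the effect of the injection differed between stages was tested as an interaction. Between the 128-cell stage and 5 hpf no member of 79 tested passed, beside 0% of 17590 genes, with 4 members at an unadjusted p under 0.05 (hsp90aa1.1, CCT4 and hsp70.3 with a higher effect at 5 hpf, DNAJC5 with a lower one) and 607 genes in all. For CCT4 the difference was 0.62 ± 0.25 on the log2 scale (edgeR adjusted p = 0.927), and for hsp90aa1.1 it was 1.48 ± 0.47 (edgeR adjusted p = 0.927). Between 5 hpf and 24 hpf no member of 88 passed, beside 0% of 19231 genes, with 2 members (hsp70.3 and HSPA12B) at an unadjusted p under 0.05 and 500 genes in all. The lower CCT levels at the 128-cell stage are thus not shown to differ from the effect at 5 hpf. Without a filter on low counts HSP90AA1 passed the first of these tests (1.43 ± 0.37, edgeR adjusted p = 0.0652), as 1 of 45 genes.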

How the data were processed

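Whole embryos were profiled by poly(A)-selected RNA-seq (Lexogen CORALL), with 3 libraries in each of 6 groups. The authors deposited 1 table of raw counts per library, reads per Ensembl gene, with 5 special rows for reads not assigned. The submitters' processing notes name bcl2fastq 2.16.10, UMI-tools 1.0.0, cutadapt 2.4, STAR 2.7.2b, HTSeq 0.11.2, R 3.6.1, DESeq2 1.24.0 and the build GRCz11; the annotation release is not given in the sources used here. The special rows stayed out of library sizes and tests. Relative to assigned reads plus these rows, reads in no gene were 11.1 to 17.9%, ambiguous reads 0.669 to 1.70% and reads with several alignments 3.77 to 14.8%, so a gene with a near-identical copy can be undercounted. The deposited normalized tables, raw counts divided by 1 size factor per library, were not used. The unit is not a level per transcript length, so levels were compared between libraries and not between genes.

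Counts were fitted over all genes in R 4.3.3 with edgeR 4.0.16 (limma 3.58.1): filterByExpr, TMM, robust quasi-likelihood test and the injection experiment as a block. The fits held 6 libraries for each injection comparison, 9 for the stages of one injection group and 12 for each interaction. Calls needed a Benjamini-Hochberg adjusted p under 0.1 and, between stages, a log2 change of at least 1. The SE of an edgeR fit was derived as the absolute log2 fold change over the square root of the test's F statistic. Alternatives were library totals or DESeq2's size factors in place of TMM, no filter, no block, 1 replicate left out, all 18 libraries together, no fold minimum, a threshold of 0.05 and DESeq2 1.42.0, and their effect is given in the closing section. CPM were scaled by TMM over all 18 libraries, and 0.5 CPM was added before the ratios within an experiment. The procedure was tested on simulated counts with 200 changed genes. These counts held no effect of the experiment, so they do not test the calls that depend on the block. Any 2 libraries of a group differed by far more than counting noise (chi-square over its degrees of freedom at least 10.1), so none was a repeat of another.

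Same-numbered mock and StCsm(EGFP) libraries were taken as 1 injection experiment, from the replicate numbers in their labels. Their deviations from the group means correlated at 0.55 to 0.74 at the 128-cell stage, 0.006 to 0.63 at 5 hpf and 0.23 to 0.48 at 24 hpf. Differently numbered libraries correlated at -0.60 to -0.05, -0.67 to 0.58 and -0.37 to 0.19. At 5 hpf these ranges overlapped, so the counts there do not show the pairing. The genes named are the 3 most abundant and the 2 with the largest stage difference in each family (tested, mean of at least 1 CPM), a list of heat-inducible genes and up to 5 with the smallest p in each direction of an injection comparison; others were chosen after their values were seen. List symbols were matched with case ignored and then without a paralog suffix, and HSPBP1 and HSPBAP1 were put in a group of their own. The members and lists were chosen with earlier results of these data known. No sequence is shown.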

Additional observations from a re-analysis of the deposited data

Results flagged for a closer look

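In 3 of the 72 members tested at both the 128-cell stage and 24 hpf, StCsm(EGFP) embryos were lower than mock embryos in every experiment at the first of these stages and higher in every experiment at the second. Opposite directions in every experiment, either way round, were seen in 4.17% of the members and in 3.49% of all 13065 genes tested at both stages, so the members lay near the background. The members were HSP90B1 (fitted log2 changes of -0.26 and 0.30, a difference of 0.56), HSPA5 (-0.23 and 0.16, a difference of 0.39) and dnajb6a (-0.11 and 0.17, a difference of 0.28). HSP90B1 and HSPA5 are the main HSP90 and HSP70 of the endoplasmic reticulum, and dnajb6a encodes a J-domain protein. The difference between these stages was not tested, and of these changes only the fall of HSP90B1 at the 128-cell stage passed the threshold.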

How the results depend on the processing

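The 12 member calls for the injection at the 128-cell stage depended on the replicate block: without it there were 0, and 0 of all genes (783 with it). With all 18 libraries in 1 fit there were 0 (6 of all genes), and at an adjusted p under 0.05 there were 2 (the count of all genes is not given here). With 1 replicate left out there were 0 to 8, with 2 left without replicate 1, none without replicate 2 and 8 without replicate 3, of which 5 were among the 12. Over all genes these fits gave 234, 102 and 875. DESeq2's likelihood ratio test made 8 (592 of all genes), of which 7 were among the 12, with no adjusted p for 4 of the 12. All other settings gave 8 to 15 (619 to 1513 of all genes). Among all genes called, 44.8% were higher, against 41.8% with DESeq2's size factors and 57.4% with library totals. At 5 hpf the count of 0 became 1 (HSP90AA1) without a filter (6 genes in all), and ranged from 0 to 1 with 1 replicate left out (1 without replicate 3, HSP90AA1). Over all genes 0, 22 and 7 were called without replicates 1, 2 and 3. The interaction of the 128-cell stage and 5 hpf went from 0 to 1 without a filter, again HSP90AA1, with 45 genes in all. The member counts at 24 hpf and for the interaction of 5 and 24 hpf stayed at 0. At 24 hpf 72 of all genes were called without a filter and 46 without replicate 3. Between stages, dropping the fold minimum gave 67 in place of 47 at the first and 72 in place of 43 at the second step in mock embryos, and 67 in place of 44 and 69 in place of 42 in StCsm(EGFP) embryos. Most genes of any kind pass without it. At an unadjusted p under 0.05 there were 13415 and 15117 of 19100 genes in mock and 13551 and 14613 of 19300 in StCsm(EGFP) embryos. With the fold minimum but no replicate block the member counts were 47, 42, 43 and 42, beside 10184, 11942, 10802 and 11803 of all genes. With 1 replicate left out the member counts were 38 to 41, 41 to 48, 39 to 45 and 39 to 47. All genes then gave 9820 to 10148, 11779 to 12249, 10601 to 10743 and 11540 to 12168. With library totals the share of higher calls among all genes went from 52.3% to 33.7% at the first and from 53.0% to 43.5% at the second step in mock embryos, and from 51.0% to 35.0% at the first step in StCsm(EGFP) embryos. Library totals also moved the median of all genes to -0.62 and -0.19 at the StCsm(EGFP) steps and to 0.14 for the interaction of 5 and 24 hpf. Without HSPA8 the summed share of the members was 1.17% and 1.11% (mock and StCsm(EGFP)) in 128-cell embryos, 0.922% and 0.970% at 5 hpf and 1.01% and 1.09% at 24 hpf. No named result that was called reversed. Among changes not called some did, as HSPD1 and HSPE1 went from above to below 0 at the first mock step with library totals. At this depth hsp70.1 and HSPA2 had too few counts at 5 hpf to be tested.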
